A study of Mus musculus with 62 samples.

Results

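The Hox genes were followed here across the skeletal muscles of the mouse. The members were the 38 protein-coding genes of the Hoxa, Hoxb, Hoxc and Hoxd clusters that were named as nearest gene in the deposited region lists. They are 38 of 19220 genes named in 16 lists of histone-marked regions, and 587 of 596282 regions carry a member's name. No level entered the choice of members. Hoxa and Hoxb had 10 members each, Hoxc and Hoxd 9 each.

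The study used chromatin immunoprecipitation sequencing (ChIP-seq) for acetylation of lysine 27 on histone H3 (H3K27ac), found at active enhancers and promoters, and for dimethylation of its lysine 4 (H3K4me2), found at enhancers and promoters more widely. It made 62 libraries, of which the 32 used here cover 8 groups with 2 replicates for each mark. The labels give the strain C57BL/6 for all samples. EDL (extensor digitorum longus), Quad (quadriceps femoris), Sol (soleus) and Dia (diaphragm) came from sedentary wild-type males. A further 4 groups were quadriceps. Sed came from sedentary wild-type mice and Ex from wild-type mice with weeks of free wheel running. The mTg mice were sedentary and overexpressed the coactivator Pgc1a (gene Ppargc1a) from the muscle creatine kinase promoter, so in muscle fibers and not in the other cells of the tissue, and Wt were sedentary wild-type mice. EDL, Sol and Dia samples pooled several animals, and a quadriceps sample came from a single animal. EDL and soleus are muscles of the lower leg, quadriceps of the thigh, and the 7 groups other than Dia are called hindlimb here.

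Hox genes encode homeodomain transcription factors that give cells their position along the body axis and along the limb. Within a cluster the genes stand in the order of the body regions in which they act, from anterior genes (paralog groups 1 to 3) through central genes (4 to 8) to posterior genes (9 to 13), and adult mesenchymal and muscle cells keep much of this code. The diaphragm is built by cells that migrate from the neck region, whereas hindlimb muscle arises from lumbar somites and grows within a limb bud that uses posterior Hoxa, Hoxc and Hoxd genes. The members comprise 7 anterior, 15 central and 16 posterior genes. Whole muscle was profiled, so that fewer cells carrying a mark and less mark per cell cannot be told apart.

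Values are log2 levels per kb of region width, one for each library. Every list was normalized on its own, so levels of different lists stand side by side without a test, beside their percentile among all regions of the list. A list is 1 call over both replicates, so a count or a covered length has no replicate error. The H3K27ac libraries held 11.7 to 24.2 M tags and the H3K4me2 libraries 6.41 to 22.7 M, and the least deep library was of mTg for either mark. Marker genes of muscle fibers (Acta1, Ckm, the adult myosins and others, 14 genes) were named in 14 of 14 cases in the Dia H3K27ac list and in 11 to 14 in the hindlimb lists.

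The upstream sequences below belong to the posterior genes whose start sites carried H3K27ac in hindlimb lists and in none from diaphragm (Hoxa9, Hoxa10, Hoxd9), to Hoxa11, which was acetylated in EDL and Sol, and to Hoxb4 and Hoxd8, which were acetylated in diaphragm as well. They run 250 bases 5′ to 3′ up to the start site, from RefSeq on GRCm38.p6 (mm10), with CG dinucleotides in capitals.
Hoxa9 (chr6:52227371-52227620, minus strand): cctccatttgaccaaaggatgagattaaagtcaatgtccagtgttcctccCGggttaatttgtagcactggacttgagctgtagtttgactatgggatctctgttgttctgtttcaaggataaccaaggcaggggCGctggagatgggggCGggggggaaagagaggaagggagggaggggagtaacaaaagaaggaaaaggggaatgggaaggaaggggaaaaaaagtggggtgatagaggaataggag
Hoxa10, inner start site (chr6:52234940-52235189, minus strand): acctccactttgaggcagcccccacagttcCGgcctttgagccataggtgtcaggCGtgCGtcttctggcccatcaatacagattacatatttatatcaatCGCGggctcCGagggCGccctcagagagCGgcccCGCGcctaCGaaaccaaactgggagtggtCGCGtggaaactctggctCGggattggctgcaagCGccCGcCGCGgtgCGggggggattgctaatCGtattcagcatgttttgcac
Hoxa10, outer start site (chr6:52240855-52241104, minus strand): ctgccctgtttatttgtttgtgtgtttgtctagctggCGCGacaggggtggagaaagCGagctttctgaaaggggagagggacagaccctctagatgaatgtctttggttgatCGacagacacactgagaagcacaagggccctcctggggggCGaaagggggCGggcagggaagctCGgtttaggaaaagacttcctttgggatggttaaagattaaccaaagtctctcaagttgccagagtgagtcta
Hoxa11 (chr6:52245811-52246060, minus strand): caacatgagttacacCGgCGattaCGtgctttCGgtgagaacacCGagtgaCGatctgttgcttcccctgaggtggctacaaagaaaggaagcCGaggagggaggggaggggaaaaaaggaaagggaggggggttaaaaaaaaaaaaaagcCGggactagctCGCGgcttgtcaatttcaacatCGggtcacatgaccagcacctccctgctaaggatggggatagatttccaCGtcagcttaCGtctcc
Hoxd9 (chr2:74697513-74697762, plus strand): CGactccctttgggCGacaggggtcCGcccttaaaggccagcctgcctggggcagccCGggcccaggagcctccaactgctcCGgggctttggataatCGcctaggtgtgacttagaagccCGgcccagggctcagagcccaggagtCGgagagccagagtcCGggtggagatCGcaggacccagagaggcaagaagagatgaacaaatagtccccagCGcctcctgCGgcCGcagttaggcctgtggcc
Hoxd8 (chr2:74704365-74704614, plus strand): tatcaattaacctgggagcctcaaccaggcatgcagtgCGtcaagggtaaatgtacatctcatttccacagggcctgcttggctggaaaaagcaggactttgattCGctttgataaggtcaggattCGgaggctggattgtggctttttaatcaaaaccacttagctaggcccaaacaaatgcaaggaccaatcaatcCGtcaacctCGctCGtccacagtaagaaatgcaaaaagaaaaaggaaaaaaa
Hoxb4 (chr11:96318017-96318266, plus strand): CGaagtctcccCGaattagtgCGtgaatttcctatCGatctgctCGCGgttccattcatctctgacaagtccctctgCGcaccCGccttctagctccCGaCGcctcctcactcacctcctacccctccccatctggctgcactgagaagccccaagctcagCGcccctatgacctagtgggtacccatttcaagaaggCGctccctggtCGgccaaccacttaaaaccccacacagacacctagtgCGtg

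These sequences hold 3, 20, 7, 13, 13, 6 and 14 CG dinucleotides in the order printed. The table of upstream sequences matched 22 of the 38 members with 24 start sites. Their median of 12.5 CG dinucleotides (range 2 to 35, the highest at Hoxa13) lay above the median of 6 over all 32851 upstream sequences. Hoxa4, Hoxb2, Hoxb3, Hoxb5, Hoxb6, Hoxb7, Hoxb9, Hoxb13, Hoxc5, Hoxc6, Hoxc8, Hoxc9, Hoxc10, Hoxc11, Hoxc12 and Hoxc13 had no entry. The letters TGATTNAT, bound by PBX-HOX pairs, were found on either strand in 2 member sequences and in 2.82% of all. TTTATNG, bound by posterior HOX proteins, was found in 2 and in 9.81% of all. Overlap of the motifs was allowed, and neither is present in the sequences printed here.

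The clusters also hold microRNA genes with 2 seeds. Their mature sequences follow 5′ to 3′, from RefSeq on GRCm38.p6, with the seed (bases 2 to 8) in capitals, because the regions of hindlimb and diaphragm divided between them.
miR-10a-5p (chr11:96317186-96317208, plus strand, beside Hoxb4): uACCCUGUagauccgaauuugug
miR-10b-5p (chr2:74726074-74726096, plus strand, in the Hoxd cluster): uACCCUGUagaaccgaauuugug
miR-196a-5p (chr15:102973365-102973386, plus strand, between Hoxc10 and Hoxc9, and chr11:96265187-96265208 beside Hoxb9): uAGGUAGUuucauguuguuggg
miR-196b-5p (chr6:52230129-52230150, minus strand, between Hoxa9 and Hoxa10): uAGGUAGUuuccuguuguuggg

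Mir10a, whose product shares its seed with that of Mir10b, lay within a region in Dia only. The H3K27ac region over it was 13783 bp wide with levels of 6.81 and 6.84 in the replicates, and the H3K4me2 region was 7678 bp wide with 7.18 and 7.20. The hindlimb lists had no region over it for either mark, 0 of 7 each. Mir196b showed the reverse, with an H3K27ac region in 7 of 7 hindlimb lists, an H3K4me2 region in 7 of 7 and none in Dia. Mir196a-2 lay within H3K27ac in 6 hindlimb lists (all but EDL), within H3K4me2 in 4 (Quad, Sol, Ex and mTg), and in none from Dia. Mir10b and Mir196a-1 lay within no region of any of the 16 lists. A region counted here only where it held the whole mature sequence, and no share over other microRNA genes was counted. The start site of Hoxb4, beside Mir10a, lay in H3K27ac regions of 5 hindlimb lists and H3K4me2 regions of 6. In Ex that H3K27ac region began at chr11:96317931, past Mir10a, so the division at Mir10a rests in part on where regions ended.

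The first question was which genes each muscle marks. By H3K27ac, the hindlimb lists covered posterior genes and the Dia list covered none. Start sites of posterior genes within an H3K27ac region numbered 9 of 16 in EDL, 7 in Sol, 6 each in Quad, Sed, Ex and mTg, 5 in Wt and 0 in Dia. Anterior start sites went the other way, with 2 to 4 of 7 in hindlimb lists and 5 in Dia, and central ones numbered 3 to 10 of 15 in hindlimb lists and 10 in Dia. Over all members the shares were 52.6% (20 of 38) in EDL, 47.4% in Quad, 42.1% in Sol, 47.4% in Sed, 19 of 38 in Ex, 42.1% in Wt, 28.9% in mTg and 39.5% (15 of 38) in Dia. The shares of all 21000 genes with a curated start site were 51.0%, 46.2%, 48.5%, 51.5%, 51.8%, 46.8%, 41.8% and 48.0% in the same order. The total for Dia was thus within the range of the hindlimb lists, and its makeup by position in the cluster was not. In the diaphragm 10 of 15 central start sites and none of 16 posterior ones were acetylated, beside 48.0% of all genes.

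**Figure D1:**
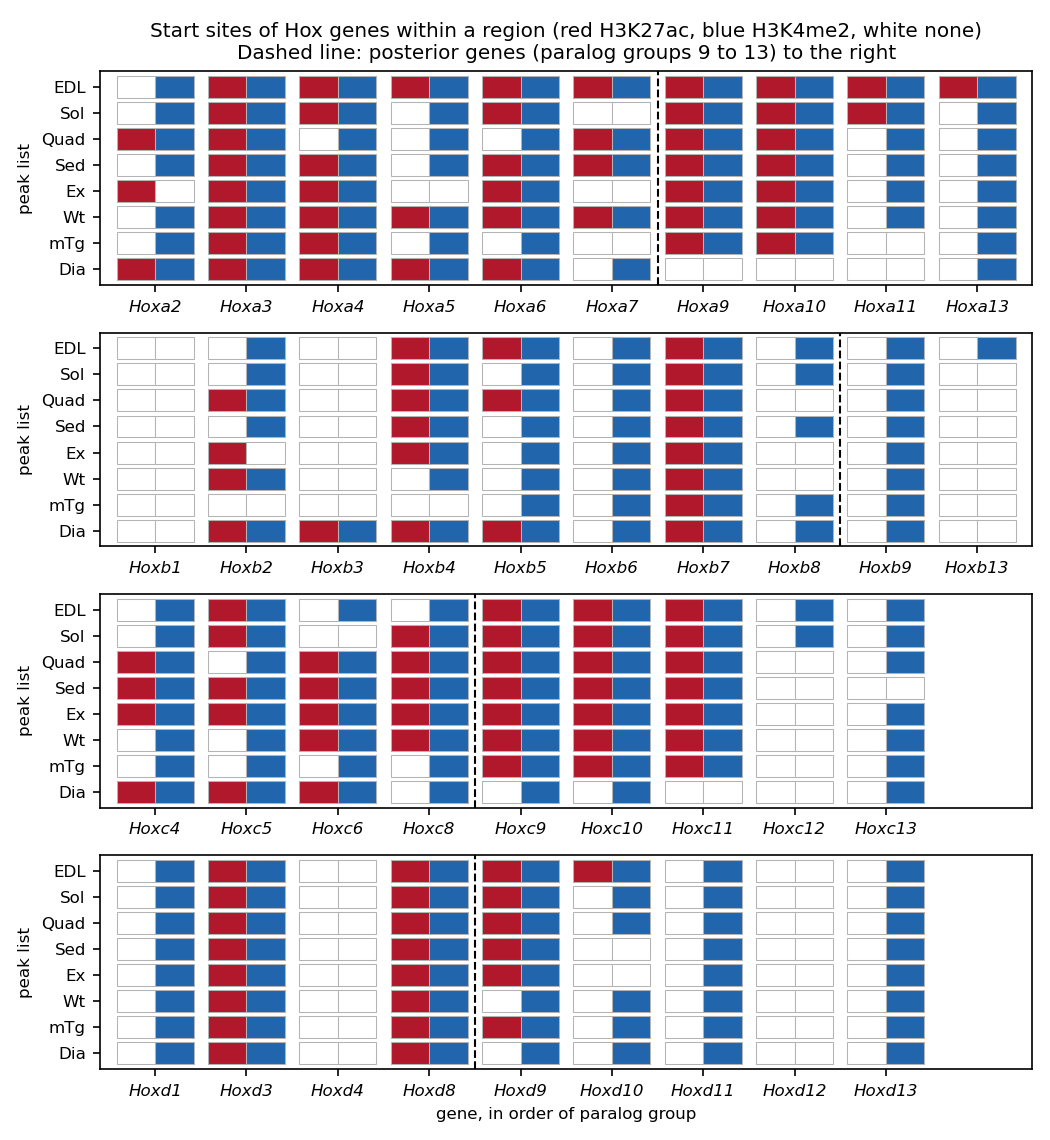
Start sites of the 38 Hox genes within marked regions, one panel per cluster with genes in paralog order and one row per group. The left side of a cell is filled where an H3K27ac region holds the start site and the right side where an H3K4me2 region does; right of the dashed line, the posterior genes, the row of Dia has no H3K27ac fill, against 5 to 9 filled genes in each hindlimb row.

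By a rule of at least 5 of the 7 hindlimb lists and not Dia, 7 members had an acetylated start site in hindlimb alone, namely Hoxa9, Hoxa10, Hoxc8, Hoxc9, Hoxc10, Hoxc11 and Hoxd9, and 3.44% of all genes met this rule. The converse, Dia and at most 1 hindlimb list, held for 1 member, Hoxb3, and for 1.01% of all genes. Start sites of Hoxa3, Hoxb7, Hoxd3 and Hoxd8 were acetylated in all 8 lists. The 12 start sites acetylated in no list were those of Hoxb1, Hoxb6, Hoxb8, Hoxb9, Hoxb13, Hoxc12, Hoxc13, Hoxd1, Hoxd4, Hoxd11, Hoxd12 and Hoxd13. Neighbours share regions (Hoxa7, Hoxa9 and Hoxa10 in 1, Hoxc9 and Hoxc10 in another), so these counts are not independent genes.

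Counted by the name given to a region, 6 members were named in hindlimb H3K27ac alone (Hoxa2, Hoxa9, Hoxa10, Hoxc8, Hoxc11 and Hoxd9), against 5.92% of genes, and 0 in Dia alone, against 2.34%. The lists named 23 members in EDL, 18 in Quad, 22 in Sol, 18 in Sed, 21 in Ex, 18 in Wt, 23 in mTg and 15 in Dia. Posterior genes among them numbered 9, 4, 5, 5, 4, 3, 7 and 0 in that order. With regions at an adjusted p-value under 0.001 alone, Dia named 14 members and the hindlimb lists 9 to 19, so the totals overlapped, while the posterior ones numbered 0 and 2 to 9. Names depend on the nearest annotated start site and hide some coverage. The Hoxa2 start site, for example, lay in a Dia region of 15280 bp (levels 7.10 and 7.31) named after the antisense gene Hoxaas2, and the Hoxa9 region of Sol was named Mir196b. Hoxb6, Hoxb9, Hoxb13, Hoxc12, Hoxc13, Hoxd1, Hoxd4, Hoxd11, Hoxd12 and Hoxd13 named no H3K27ac region in any of the 8 lists.

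At start sites, H3K4me2 reached more members than H3K27ac, and its posterior counts lay closer together between the muscles. Its regions held 34 of 38 member start sites in EDL (89.5%), 31 in Quad (81.6%), 31 in Sol (81.6%), 30 in Sed (78.9%), 26 in Ex (68.4%), 31 in Wt (81.6%), 28 in mTg (73.7%) and 29 in Dia (76.3%). All genes gave 66.0%, 63.8%, 64.2%, 62.8%, 61.1%, 64.8%, 59.7% and 63.1%, so that the members lay above the background in every list. This background includes genes that no list named, whereas members were chosen as genes that some list named. Posterior start sites numbered 11 to 15 of 16 in hindlimb lists and 9 in Dia, and anterior ones 3 to 5 of 7 in hindlimb lists and 6 in Dia. Hoxa9, Hoxa10, Hoxa11 and Hoxc11 were marked at the start site in hindlimb alone (1.95% of all genes) and Hoxb3 in Dia alone (0.529%). By region name, Hoxa2, Hoxa3, Hoxa9, Hoxa11, Hoxb4 and Hoxc11 fell in the hindlimb class (3.43%) and Hoxa7 in the Dia class (1.16%). Of these, Hoxa2, Hoxa3 and Hoxb4 did have H3K4me2 over the start site in Dia, within regions named Hoxaas2 (15952 bp), Hoxa6 (6865 bp) and Mir10a (7678 bp). Every member was named in at least 1 H3K4me2 list, which the choice of members fixed for the 10 that named no H3K27ac region. By H3K4me2, 19 start sites lay in regions of all 8 lists.

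The posterior genes that the diaphragm did not acetylate were in part still marked by H3K4me2. Of the 16 posterior start sites in Dia, 0 had both marks, 9 had H3K4me2 without H3K27ac (Hoxa13, Hoxb9, Hoxc9, Hoxc10, Hoxc13, Hoxd9, Hoxd10, Hoxd11 and Hoxd13) and 7 had neither (Hoxa9, Hoxa10, Hoxa11, Hoxb13, Hoxc11, Hoxc12 and Hoxd12). In EDL the corresponding counts were 9, 6 and 1, in Quad 6, 7 and 3, and in Sol 7, 7 and 2. Over all 38 members, H3K4me2 without H3K27ac was found at 14 start sites in Dia, 14 in EDL, 15 in Sol and 13 in Quad. The shares of all genes in this state were 18.0%, 15.8%, 17.2% and 19.4%. Neither mark was found at 9 member start sites in Dia, beside 34.0% of all genes. Start sites of Hoxb6, Hoxb9, Hoxd1, Hoxd11 and Hoxd13 carried H3K4me2 in all 8 groups and H3K27ac in none.

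Covered length gave the same division by position. The posterior part of a cluster runs from the 3′ end of its paralog 9 gene to the start site of its last gene (37.8 kb of 96.0 kb in Hoxa on chromosome 6, 82.3 of 171.4 in Hoxb on chromosome 11, 63.3 of 113.3 in Hoxc on chromosome 15 and 32 of 94.8 in Hoxd on chromosome 2). H3K27ac covered 70.2% of the posterior Hoxa part in EDL, 45.8% in Sol, 33.5% in Quad, 32.3% in Sed, 34.3% in Ex, 33.9% in Wt, 33.6% in mTg and 0% in Dia. EDL and Sol lay above the 5 quadriceps lists, which stayed within 2 percentage points of each other, and Dia lay apart from all 7. The hindlimb mean was 40.5% ± 13.9 (SD over 7 lists). An exact two-sided permutation test of hindlimb against Dia over the 8 lists gave p = 0.125, the smallest p this design allows, so that it cannot pass 0.05, and 5 of the 7 hindlimb lists are quadriceps.

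In posterior Hoxc, H3K27ac covered 57.2% in Sol, 49.8% in EDL, 46.2% in Wt, 45.3% in Ex, 44.8% in Quad, 43.9% in Sed, 38.8% in mTg and 0% in Dia (hindlimb mean 46.6% ± 5.71 SD, exact permutation p = 0.125). Posterior Hoxd was covered by 19.5% in EDL, 5.0% in Sol, 4.2% in Quad, and 0% in Wt and Dia, so the groups overlapped (exact permutation p = 0.375). Posterior Hoxb had 0% in all 8 lists. The hindlimb signal over posterior genes was therefore found in Hoxa and Hoxc, and in Hoxd mostly in EDL.

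The rest of the cluster, with the anterior and central genes, was covered more in the diaphragm for Hoxa and Hoxb. In Hoxa the H3K27ac regions of Dia took up 56.4% of it, against 22.1% to 35.5% in hindlimb lists (mean 29.1% ± 5.24 SD, exact permutation p = 0.125). In Hoxb the share was 52.0% in Dia and 8.0% to 27.1% in hindlimb lists (mean 18.8% ± 6.60 SD, exact permutation p = 0.125). Hoxc and Hoxd did not divide this way, with 44.9% in Dia against 23% to 54.5%, and 7.1% against 4.4% to 9.9% (exact permutation p = 0.875 for both). In Hoxb, regions named after members added up to 45473 bp in Dia with a mean width of 4134 bp and a mean level of 6.04, against 7674 to 20082 bp in hindlimb lists with mean widths of 959 to 2888 bp and mean levels of 4.97 to 5.99.

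**Figure D2:**
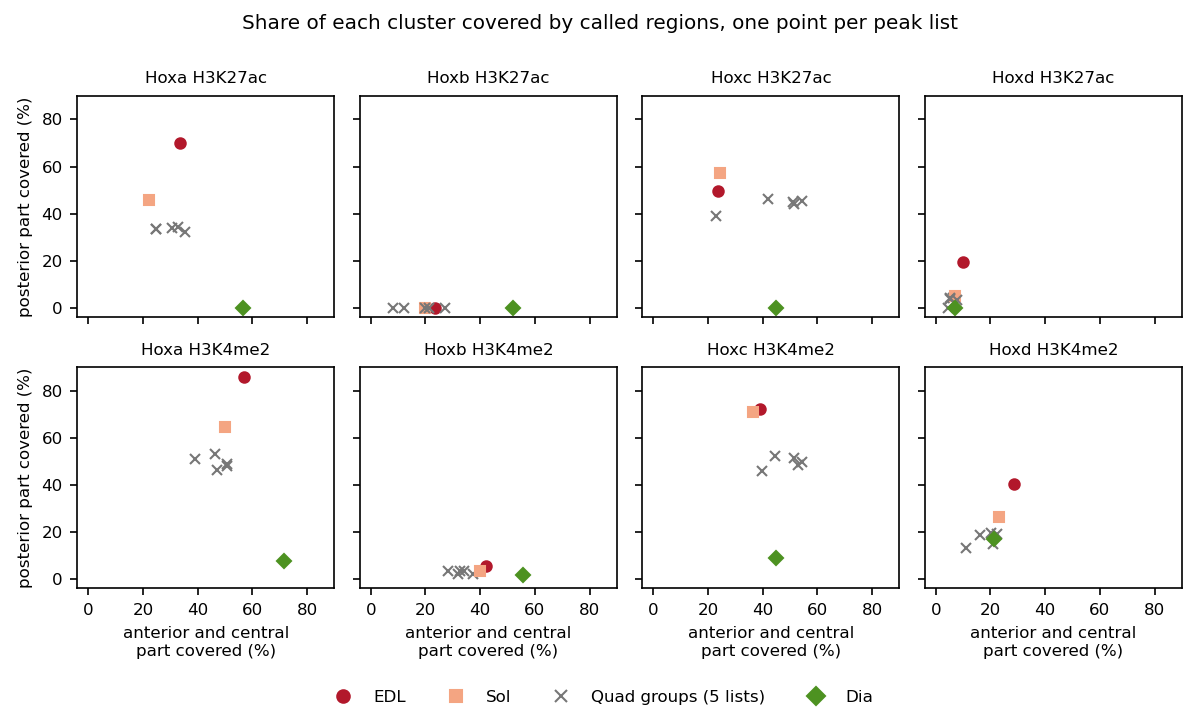
Share of the anterior and central part (horizontal axis, %) and of the posterior part (vertical axis, %) of each cluster covered by regions, 1 point per list, for H3K27ac and H3K4me2. Dia (diamond) lies at 0% on the vertical axis for H3K27ac in every cluster and furthest to the right in Hoxa and Hoxb.

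H3K4me2 also covered less of posterior Hoxa and Hoxc in Dia than in the hindlimb lists. Posterior Hoxa was covered by 85.8% in EDL, 64.7% in Sol, 46.3% to 53.3% in the quadriceps lists and 7.7% in Dia (exact permutation p = 0.125). Posterior Hoxc was covered by 72.0% in EDL, 70.8% in Sol, 45.9% to 52.1% in quadriceps and 8.8% in Dia (exact permutation p = 0.125). In posterior Hoxd the Dia value of 16.9% lay within the hindlimb range of 13.4% to 40.4% (exact permutation p = 0.625). The anterior and central part of Hoxa was covered by 71.4% in Dia against 39.0% to 56.9%, and that of Hoxb by 55.6% against 28.2% to 42.2% (exact permutation p = 0.125 for both).

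**Figure D3:**
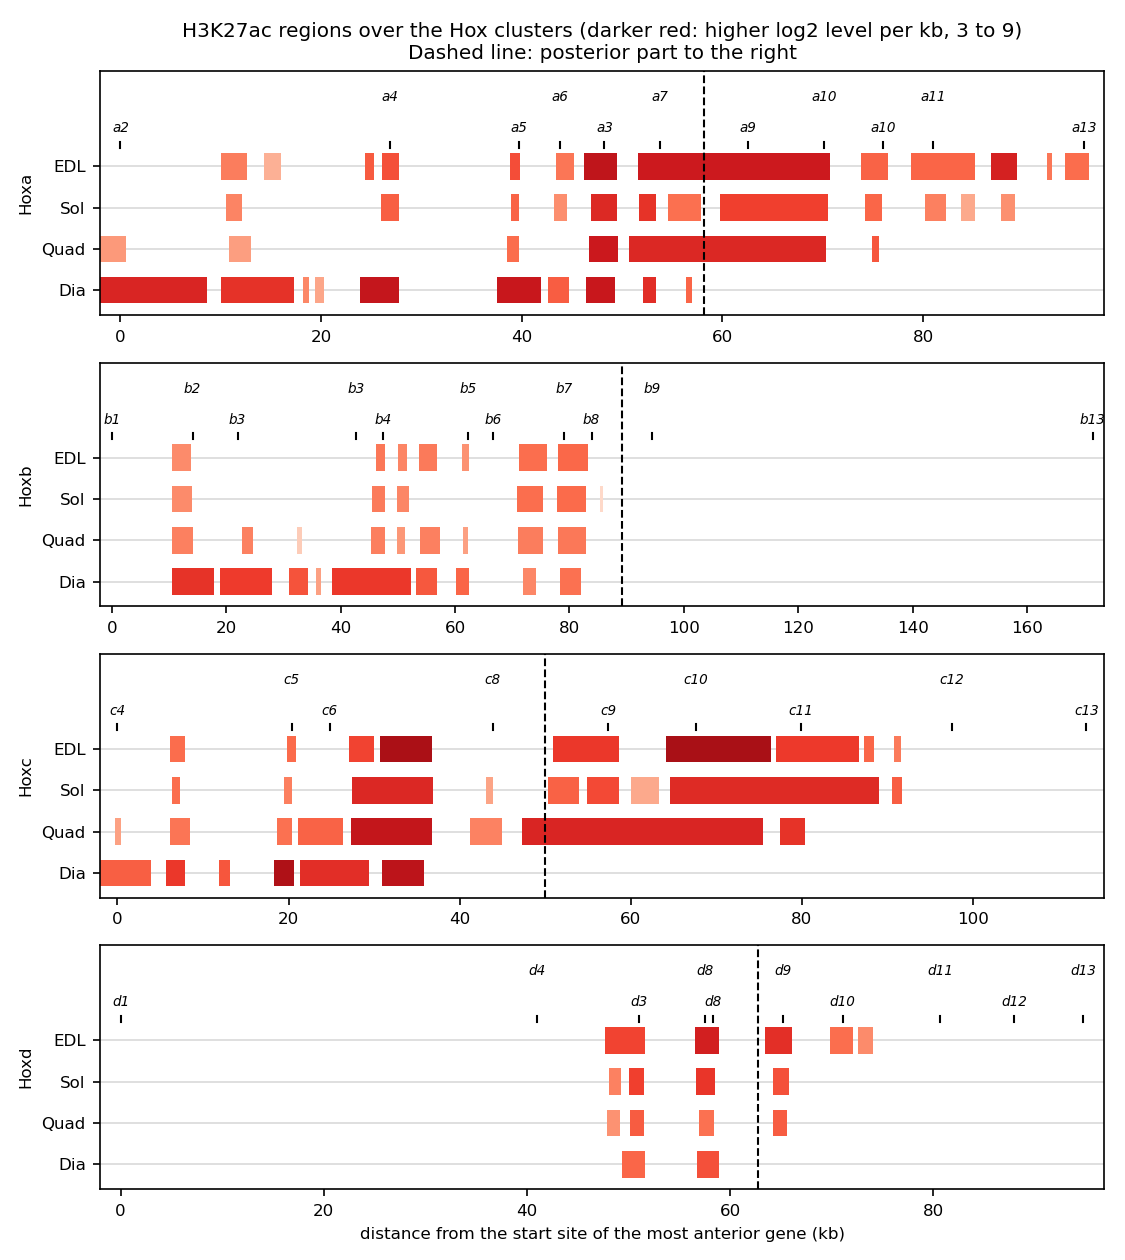
H3K27ac regions of EDL, Sol, Quad and Dia along the 4 clusters, with distance in kb from the start site of the most anterior gene on the horizontal axis and darker red for a higher log2 level per kb. Posterior of the dashed line, EDL, Sol and Quad have regions in Hoxa, Hoxc and Hoxd, and Dia has none.

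Individual genes are taken in the order of the clusters, beginning with posterior Hoxa. Hoxa9, a posterior factor of limb and blood cells, lay in a broad H3K27ac region that reached 19083 bp in EDL (chr6:52216456-52235539) and held the start sites of Hoxa7 and Hoxa10 too. The level per kb in its replicates was 7.35 and 7.56 in EDL, 7.17 and 7.13 in Quad, 6.67 and 6.74 in Sol, 7.42 and 7.56 in Sed, 7.21 and 6.97 in Ex, 6.77 and 6.70 in Wt and 6.94 and 6.67 in mTg. No H3K27ac or H3K4me2 region covered it in Dia, while the hindlimb levels stood at percentiles 87.5 in EDL, 90.3 in Quad and 78.8 in Sol. The region was widest in Quad (19591 bp) and narrowest in Sol (10701 bp) and mTg (12361 bp), and in Sol, Ex and mTg it stopped short of the Hoxa7 start site. In mTg Hoxa10, which patterns the thigh and the lumbar spine, lay in a separate region of 2992 bp with 7.28 and 6.73.

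Hoxa11, which patterns the lower leg and forearm, had its start site within H3K27ac in EDL (5.78 and 6.40, 6348 bp) and Sol (5.65 and 5.52, 2060 bp) and in no quadriceps list. Hoxa13, which patterns the foot and hand, was acetylated in EDL alone (5.75 and 6.14, 2462 bp). A region upstream of Hoxa11 was 1.71 lower in Sol than in EDL on the centred log2 scale (SD of the difference 0.30). H3K4me2 was found at the Hoxa11 start site in EDL (6.94 and 6.66), Sol (6.83 and 6.91) and Quad (6.09 and 6.11) and not in Dia. Hoxa13 had H3K4me2 in Dia as well, with 5.64 and 5.91 against 6.60 and 6.27 in EDL. The start site that the printed Hoxa11 sequence leads to thus lay in H3K4me2 in 3 hindlimb muscles and not in the diaphragm.

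Posterior Hoxc held some of the highest levels among the members. Hoxc10, a gene of lumbar and hindlimb position, lay in an H3K27ac region with 8.16 and 8.18 in EDL (12238 bp, chr15:102958011-102970249, percentile 97.9) and 7.95 and 7.97 in Sed (11862 bp, percentile 98.0). The region reached 28216 bp in Quad (7.19 and 7.21), 24359 bp in Sol (7.12 and 7.08), 28861 bp in Ex (7.14 and 6.95), 23890 bp in Wt (6.93 and 6.82) and 11929 bp in mTg (7.03 and 6.89). Wide and narrow calls of this region both occurred among untreated quadriceps groups, and the narrow calls of EDL and Sed had the higher levels per kb. No H3K27ac region held the Hoxc10 start site in Dia, where H3K4me2 had a region of 764 bp with 5.31 and 5.42, at percentile 24.4.

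Hoxc11, a hindlimb gene of the next paralog group, had H3K27ac levels of 6.79 and 6.79 in EDL, 6.87 and 6.99 in Quad, 7.12 and 7.08 in Sol (in the Hoxc10 region), 7.18 and 7.16 in Sed, 6.80 and 6.38 in Ex, 6.02 and 6.13 in Wt and 6.69 and 6.41 in mTg, with no region in Dia for either mark. Hoxc9, a gene of thoracic and lumbar position, had 6.81 and 6.86 in EDL, 6.58 and 6.46 in Sol, 6.70 and 6.85 in Sed and 6.01 and 5.86 in mTg, and lay within the Hoxc10 region in Quad, Ex and Wt. In Dia it had only H3K4me2 (1767 bp, 5.48 and 5.28). Hoxc8 was weaker, with H3K27ac in Quad (5.36 and 5.72), Sol (5.11 and 4.75), Sed (5.64 and 6.14), Ex (5.72 and 5.28) and Wt (5.18 and 5.06). Hoxc12 and Hoxc13, at the posterior end of the cluster, were never acetylated at the start site, and H3K4me2 at Hoxc13 ranged from 4.91 and 4.76 in mTg to 5.96 and 5.74 in EDL, with 5.27 and 4.82 in Dia and no region in Sed.

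In posterior Hoxd, Hoxd9 had H3K27ac at 7.20 and 6.80 in EDL, 5.97 and 6.48 in Quad, 6.51 and 6.33 in Sol, 5.90 and 6.39 in Sed, 6.38 and 5.59 in Ex and 5.95 and 5.15 in mTg, with no region in Wt or Dia. H3K4me2 at Hoxd9 was 7.28 and 7.29 in EDL, 6.36 and 6.69 in Quad and 6.79 and 6.52 in Dia, which lay within the hindlimb range. Hoxd10, which patterns the lower limb, was acetylated in EDL alone (6.31 and 5.51). The genes from Hoxd11 to Hoxd13 were acetylated in no list. Posterior Hoxb had Hoxb9 with H3K4me2 in all 8 lists (6.20 and 6.01 in EDL, 6.10 and 5.74 in Dia) and Hoxb13, far from the rest of its cluster, in EDL alone at percentile 1.3 (4.67 and 4.0).

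The anterior and central genes were led by Hoxb. Hoxb4, a central gene used in neck and trunk and in blood stem cells, lay in a 13783 bp H3K27ac region in Dia (chr11:96313423-96327206, 6.81 and 6.84), with a Hoxb3 start site in the same region. In hindlimb lists its regions were 5.59 and 5.90 in EDL, 5.66 and 5.57 in Quad, 5.75 and 5.62 in Sol, 5.52 and 6.36 in Sed and 6.69 and 6.13 in Ex, and Wt and mTg had none over the start site. By level, the Dia replicates were higher than those of every hindlimb list, by a narrow margin over Ex. By percentile within the list the order against Ex was the reverse. Hoxb4 stood at 70.5 in Ex, and no Hoxb region named after a member stood above 70.2 in Dia. Hoxb3, an anterior gene of the hindbrain and neck, had H3K27ac over a start site in Dia alone, and H3K4me2 of 7.04 and 6.93 (7019 bp), again in Dia alone.

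Hoxb2, a hindbrain gene at the anterior end, had an H3K27ac region of 7452 bp in Dia with 6.84 and 7.0, against 5.46 and 5.73 in Quad (3673 bp), 5.83 and 5.67 in Ex (5533 bp) and 4.13 and 4.25 in Wt (1061 bp). EDL, Sol, Sed and mTg had none over its start site. H3K4me2 at Hoxb2 was 7.20 and 7.28 in Dia, against 5.98 and 6.08 in EDL, 5.59 and 5.96 in Quad, 5.66 and 5.91 in Sol, 5.61 and 5.51 in Sed and 5.40 and 5.37 in Wt. The Dia values lay above all of these without overlap. Hoxb5 had H3K27ac in Dia (5.89 and 6.29, 2233 bp), EDL (4.57 and 5.96) and Quad (4.51 and 5.52). Hoxb7 did not follow the pattern, with 5.79 and 5.96 in Dia within the range of EDL (5.83 and 6.23), Sol (5.88 and 6.09) and Quad (5.69 and 5.76).

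In central Hoxa, Hoxa4 had H3K27ac at 7.47 and 7.78 in Dia (3813 bp, percentile 87.6), against 6.40 and 6.45 in EDL, 6.04 and 6.32 in Sol, 6.23 and 6.5 in Sed, 6.26 and 6.09 in Ex, 5.92 and 6.07 in Wt and 6.48 and 6.04 in mTg, with no region in Quad. Hoxa5, a gene of neck and upper trunk, was acetylated in Dia over 4438 bp (7.55 and 7.58, percentile 86.4), in EDL over 1033 bp (6.48 and 6.43) and in Wt over 500 bp (3.91 and 4.06). Dia was the highest list for both genes, and the differences between lists were not tested. Hoxa6 had 6.08 and 6.31 in Dia, 5.66 and 5.88 in EDL and 5.40 and 5.28 in Sol. Hoxa2 had 7.10 and 7.31 in Dia, 4.78 and 5.43 in Quad and 5.25 and 5.32 in Ex.

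Hoxa3 was marked in every group, at a curated start site that lies between Hoxa6 and Hoxa7 rather than beside its coding exons. Its H3K27ac levels were 7.68 and 7.79 in EDL, 7.48 and 7.47 in Quad, 7.13 and 7.14 in Sol, 7.61 and 7.66 in Sed, 7.55 and 7.29 in Ex, 6.78 and 6.84 in Wt, 7.77 and 7.44 in mTg and 7.42 and 7.69 in Dia. Percentiles ran from 86.2 in Dia to 98.7 in mTg. This was the member with the highest percentile of its cluster in EDL, Quad, Sol, Sed, Wt and mTg. In Dia it was Hoxa4 and in Ex a region named after Hoxa7 (percentile 95.1).

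Of central Hoxc, Hoxc4, Hoxc5 and Hoxc6 were acetylated at the start site in Dia and in some hindlimb lists. Hoxc6 had 6.90 and 7.16 in Dia, 6.02 and 6.20 in Quad, 6.33 and 6.63 in Sed, 7.25 and 7.13 in Ex and 6.03 and 6.01 in Wt. Hoxc5 had 8.02 and 8.07 in Dia (2308 bp, percentile 94.6), against 6.31 and 5.65 in EDL, 5.51 and 5.71 in Sol, 6.28 and 7.05 in Sed and 6.59 and 6.00 in Ex. Hoxc4 had 6.25 and 6.09 in Dia, 5.06 and 4.90 in Quad, 5.32 and 6.11 in Sed and 6.32 and 5.57 in Ex. Hoxc5 thus separated Dia from the hindlimb values without overlap, while Hoxc6 and Hoxc4 overlapped those of Ex. The Ex region over the Hoxc6 start site was 16001 bp wide and also took in a strong region upstream, described below. Its overlap with Dia at Hoxc6 is therefore that of a merged region.

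**Figure D4:**
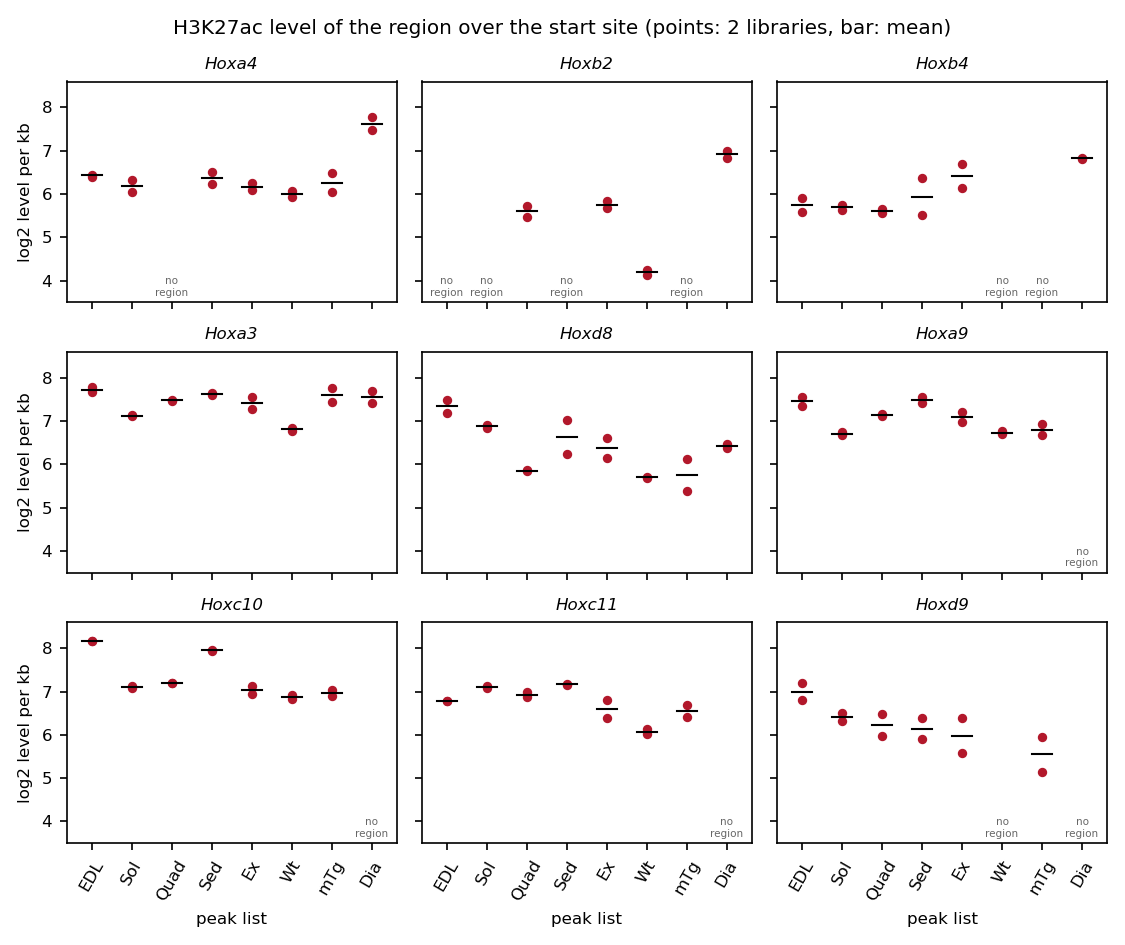
H3K27ac log2 level per kb of the region over the start site (vertical axis) in each group, for Hoxa4, Hoxb2, Hoxb4, Hoxa3, Hoxd8, Hoxa9, Hoxc10, Hoxc11 and Hoxd9. Points are the 2 libraries, bars their mean, and "no region" marks a start site outside every region; Hoxa9, Hoxc10, Hoxc11 and Hoxd9 have no region in Dia, where Hoxa4, Hoxb2 and Hoxb4 have their highest values.

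Regions distal to the curated start sites were strong in Hoxc. A region between the start sites of Hoxc8 and Hoxc6 was found in all 16 lists. It overlaps the annotated Hoxc6 gene (chr15:102998226-103011882), whose curated start site lies downstream at 103009562. By H3K27ac it had 8.07 and 8.20 in EDL (chr15:102997588-103003677), 7.65 and 7.64 in Quad, 7.12 and 7.21 in Sol, 7.59 and 7.65 in Sed, 7.25 and 7.13 in Ex, 7.74 and 7.41 in Wt, 6.95 and 6.87 in mTg and 7.68 and 7.91 in Dia (chr15:102998605-103003488). The Ex values are those of the 16001 bp region given above for Hoxc6, which also held the Hoxc6 start site. Percentiles were 89.9 to 99.4, and Dia at 90.9 lay within the hindlimb range, so this element did not separate the muscles. Another distal region, 26062 bp past the Hoxc4 start site (chr15:103058256-103062658), did. It had 7.82 and 7.82 in Dia (percentile 91.2), against 5.19 and 5.08 in EDL, 5.82 and 5.80 in Quad, 5.03 and 5.02 in Sol, 6.26 and 6.72 in Sed, 6.36 and 6.34 in Ex, 5.83 and 5.29 in Wt and 5.09 and 5.0 in mTg. H3K4me2 over the same place was 7.54 and 7.51 in Dia (percentile 96.4). In the matched comparison below, which covers only regions found in both lists, no H3K4me2 difference was called there between Dia and EDL, Quad or Sol.

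Of the Hoxd genes marked everywhere, Hoxd8 had H3K27ac at 7.48 and 7.19 in EDL, 5.86 and 5.87 in Quad, 6.85 and 6.91 in Sol, 6.24 and 7.03 in Sed, 6.62 and 6.14 in Ex, 5.70 and 5.69 in Wt, 6.13 and 5.39 in mTg and 6.37 and 6.48 in Dia. Hoxd3, an anterior gene, had 6.67 and 6.60 in EDL, 6.20 and 6.24 in Quad, 6.64 and 6.74 in Sol and 5.91 and 6.22 in Dia. By level, EDL and Sol were high for both, and Dia lay among the quadriceps values. By percentile Hoxd8 stood lower in Dia (55.4) than in the quadriceps lists where it led its cluster (Sed 71.1, Ex 69.3 and Wt 72.1). Hoxd1 carried H3K4me2 alone (6.57 and 6.62 in EDL, 6.22 and 6.26 in Dia), and Hoxd4 had no start site mark in any list.

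Level differences were next measured at regions found in both lists of a pair, matched by a reciprocal overlap of at least 50%. Each library was centred on its median over the matched regions, and a region was counted as called where group means were over 2-fold apart and replicates did not overlap. Between Dia and the limb muscles, 3 of 29 matched member regions were called by H3K27ac (10.3%, against 2.95% of all matched regions) and 7 of 69 by H3K4me2 (10.1%, against 0.886%). A region enters once for every pair in which it is matched, so these are not separate regions. By H3K4me2 the same Hoxb2 region of Dia was called against EDL, Quad and Sol, and that of Hoxd10 against EDL and Sol. Between EDL, Quad and Sol, 3 of 47 (6.38%, against 2.25%) and 2 of 104 (1.92%, against 0.946%) were called. Matching leaves out the regions that one muscle lacks, so the posterior Hoxa and Hoxc regions described above do not enter these counts.

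For H3K27ac, Dia against EDL gave 2 of 10 (3.09% of all regions), Dia against Quad 0 of 9 (4.20%) and Dia against Sol 1 of 10 (1.64%). EDL against Quad gave 2 of 14 (0.648%), Sol against EDL 1 of 19 (2.73%) and Sol against Quad 0 of 14 (3.59%). For H3K4me2, Dia against EDL gave 3 of 21 (0.687%), Dia against Quad 1 of 25 (1.55%) and Dia against Sol 3 of 23 (0.439%). EDL against Quad gave 1 of 32 (0.478%), Sol against EDL 0 of 41 (0.618%) and Sol against Quad 1 of 31 (1.84%). Pairs share the Dia, EDL, Quad or Sol libraries, and counts this small set no order among them.

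The distal Hoxc4 region was 2.59 higher in Dia than in EDL by H3K27ac on the centred log2 scale (SD of the difference 0.09) and 1.01 lower in EDL than in Quad (SD 0.09). Hoxb2 was higher in Dia by H3K4me2, by 1.55 over EDL (SD 0.08), 1.36 over Quad (SD 0.13) and 1.37 over Sol (SD 0.11). A region of 11779 bp named after Hoxa4 was 1.02 higher in Dia than in Sol (SD 0.09). All 5 calls in favour of Dia fell on regions named after Hoxa4, Hoxb2 and Hoxc4, which are anterior or central genes, with the same Hoxb2 region counted against EDL, Quad and Sol. By H3K27ac the Dia list named 0 posterior members, so none of these could be called higher in Dia. The calls against Dia included a central gene, Hoxd8, and an anterior gene, Hoxd3, so the calls did not divide by position. The Hoxa4 call is lost centred on the whole list (0.92) or without replicate 1 (0.91), and that of Hoxc4 in EDL against Quad without replicate 2 (-0.93) or with the level of the whole region (-0.37).

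The calls against Dia fell in Hoxd. Hoxd8 fell by 1.00 (SD 0.18) against EDL and Hoxd3 by 1.04 (SD 0.16) against Sol, both by H3K27ac. By H3K4me2, Hoxd10 was 1.15 lower than in EDL (difference -1.15, SD 0.29) and 1.05 lower than in Sol (difference -1.05, SD 0.25), and Hoxd13 was 1.15 lower than in EDL (difference -1.15, SD 0.21). Among limb muscles, Hoxd8 was 1.14 higher in EDL than in Quad (SD 0.18), and Hoxd11 was higher than in Quad by 1.58 in EDL (SD 0.15) and by 1.16 in Sol (SD 0.10) by H3K4me2. Hoxd11 had 4.48 and 4.8 in Quad, the lowest of all groups, while Sed had 5.76 and 5.74 and Wt 5.54 and 5.14. Without replicate 1 the calls of Hoxd8 in Dia against EDL (-0.78), Hoxd3 (-0.94) and Hoxd8 in EDL against Quad (0.96) are lost, and without replicate 2 those of Hoxd10 against EDL (-0.75) and Sol (-0.89). Centred on the whole list, Hoxd3 (-0.99), Hoxd8 in EDL against Quad (0.94) and Hoxd11 in Sol against Quad (0.93) fell below the 2-fold limit. The level of the whole region did the same to Hoxd3 (-0.35) and Hoxd13 (-0.56).

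**Figure D5:**
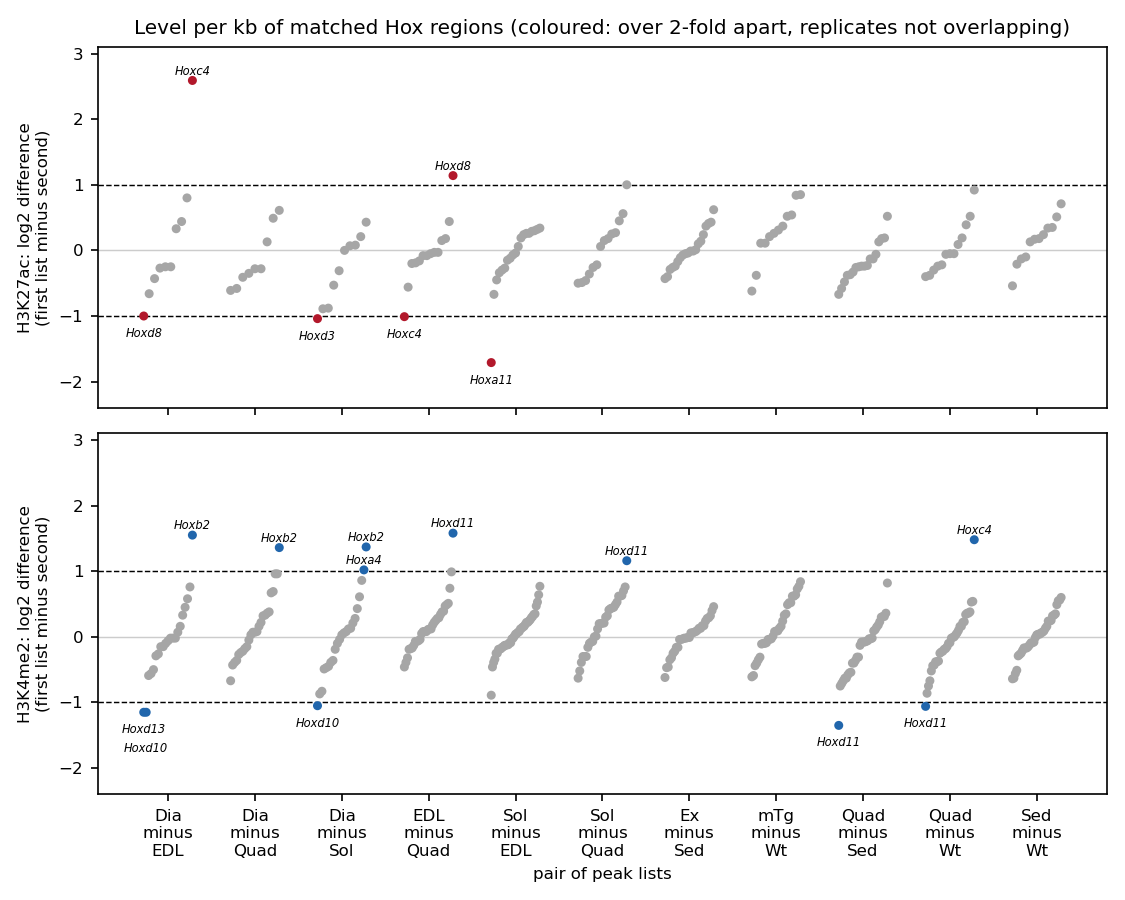
Centred log2 differences per kb (vertical axis) of member regions matched between lists, in 11 pairs of groups (horizontal axis) for each mark, 1 point per region. Coloured points are over 2-fold apart with replicates that do not overlap; the largest difference is that of the distal Hoxc4 region, 2.59 higher in Dia than in EDL by H3K27ac.

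No member region passed this rule with exercise or with Pgc1a overexpression. Ex against Sed gave 0 of 20 by H3K27ac (2.93% of all regions) and 0 of 31 by H3K4me2 (0.0972%). The pair of mTg and Wt gave 0 of 12 (4.64%) and 0 of 31 (0.730%). For this pair the H3K4me2 count depended on the processing, since centring on the whole list called 9 of 31 member regions lower in mTg, beside 6999 of 19190 of all, whose median moved to -0.90. Leaving out replicate 2 called 3 of 31 higher, and the level of the whole region 2 of 31. The deposited lists of differential H3K27ac, with 382 regions higher and 2280 lower in Ex than in Sed and 1828 higher and 844 lower in mTg than in Wt, held 0 regions named after a member and 0 within the clusters. Untreated quadriceps sets compared with each other gave 0 of 18 for Quad and Sed (1.32%), 0 of 13 for Quad and Wt (1.46%) and 0 of 12 for Sed and Wt (0.510%) by H3K27ac. By H3K4me2 they gave 1 of 33 for Quad and Sed (0.784%), 2 of 35 for Quad and Wt (2.59%) and 0 of 35 for Sed and Wt (1.78%). The called ones were Hoxd11, lower in Quad than in Sed (difference -1.35, SD 0.13) and in Wt (difference -1.06, SD 0.20), and a region 1.48 higher in Quad than in Wt far downstream of Hoxc4 (SD 0.30). Without replicate 1, Hoxd11 in Quad against Wt was at -0.79. At Hoxd11, Sol stood 1.16 above Quad, which is within the size of these differences between untreated quadriceps sets. EDL stood 1.58 above Quad, which is larger than either.

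Fewer start sites in mTg than in Wt (11 and 16 by H3K27ac, of 38) came with fewer tags, 11.7 and 12.7 M in the mTg libraries and 14.9 and 14.1 M in those of Wt, and the part of depth in this was not tested. Posterior start sites did not decrease, with 6 in mTg and 5 in Wt, and central ones numbered 3 and 8. Fibroblast markers were lower in mTg as well by H3K27ac, with 6 of 19 matched regions called lower (of Col1a1, Col1a2, Col3a1, Dcn and Pdgfra), a median difference of -0.82 and a summed log2 level of 11.82 against 12.89 in Wt. By H3K4me2 0 of 12 were called. Their part in the start site counts was not tested.

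Few member regions were broad, on counts of 1 to 4 per list, yet their share exceeded that of all regions in every list. Regions with another name are left out. Those over Hoxc10 in Quad, Ex and Wt, named after Mir196a-2, were 28216, 28861 and 23890 bp wide by H3K27ac. In H3K27ac, regions of at least 10 kb made up 2 of 33 member regions in EDL (2.22% of all regions), 1 of 26 in Quad (1.35%), 1 of 30 in Sol (1.55%) and 1 of 29 in Dia (1.28%). They made up 4 of 26 in Sed (1.98%), 2 of 29 in Ex (1.17%), 1 of 29 in Wt (0.869%) and 2 of 26 in mTg (0.711%). In H3K4me2 they made up 4 of 51 in EDL (0.788%), 3 of 45 in Quad (0.508%), 2 of 50 in Sol (0.521%) and 1 of 41 in Dia (0.353%). The other quadriceps lists had 4 of 42 in Sed (0.491%), 1 of 41 in Ex (0.300%), 2 of 50 in Wt (0.347%) and 1 of 39 in mTg (0.203%). The widest of those named after a member was the 40509 bp H3K4me2 region of Sol over Hoxc9, Hoxc10 and Hoxc11, followed by 28574 bp in EDL over Hoxc10. The one Dia region of this width with H3K27ac was that over Hoxb4. The median level of member regions lay at percentile 46.5 in Dia, 46.2 in EDL, 50.3 in Sol and 54.6 in Quad by H3K27ac, and at 58.2 in Sed, 58.4 in Ex, 60.9 in Wt and 62.2 in mTg.

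Among regions named after a member, the highest percentile of level by H3K27ac differed by cluster and muscle. In Hoxc it was Hoxc10 in EDL, Sed and mTg (97.9, 98.0 and 91.5) and the distal Hoxc4 region in Dia (91.2). In Quad, Sol, Ex and Wt it was the region between the Hoxc8 and Hoxc6 start sites (97.1, 89.9, 90 and 99.4), which in Ex reached over the Hoxc6 start site. In Hoxb the leading members stood lower in their lists, with Hoxb7 at 53.5 in Sol, 53.6 in Quad, 45.9 in EDL and 67.1 in mTg, Hoxb2 at 51.4 in Sed and 70.2 in Dia, Hoxb4 at 70.5 in Ex and a distal Hoxb1 region at 66.7 in Wt. In Hoxd, Hoxd8 led in EDL (84.9), Sol (83.5), Sed (71.1), Ex (69.3), Wt (72.1) and Dia (55.4), Hoxd9 in Quad (68.5) and Hoxd3 in mTg (74.1).

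Nearly all acetylated member regions carried both marks. The share of H3K27ac member regions that overlapped an H3K4me2 region ran from 89.7% (26 of 29 in Dia, Wilson 95% interval 73.6% to 96.4%) to 100% (26 of 26 in Quad and in mTg, 87.1% to 100%). All regions of the lists gave 44.9% in mTg to 71.5% in EDL. The converse share, H3K4me2 member regions with H3K27ac, was 52.0% (Sol) to 65.9% (Ex), beside 59.7% to 64.7% of all regions. These intervals cover counting error over regions only.

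Accessible chromatin, measured by ATAC-seq in control quadriceps, had 24 of 44911 sites within the clusters, 10 in Hoxa, 6 in Hoxb, 4 in Hoxc and 4 in Hoxd. The strongest, 12.5 tags per 10 M, lay at -151 bp from the Hoxc10 start site, and the next at 11.7 tags, -3273 bp from Hoxa7. Another, at 11.6 tags, lay 8869 bp past the Hoxc8 start site, in the region between the Hoxc8 and Hoxc6 start sites described above. Of the Quad member regions, 12 of 26 with H3K27ac overlapped such a site (46.2%, Wilson 28.8% to 64.5%, all regions 57.2%) and 21 of 45 with H3K4me2 (46.7%, all regions 52.7%). Accessible sites stood at -85 bp from Hoxd10 and -38 bp from Hoxd9 as well, with 4.43 and 4.11 tags.

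MED1, a subunit of the mediator complex, was profiled in 4 muscles and the calcium-regulated factor NFAT in Quad and Sol, with 1 library each. MED1 sites named after a member numbered 3 of 4070 in Sol (Hoxa5, Hoxa9 and Hoxd8, with peak scores of 8.19, 7.6 and 5.85), 2 of 3593 in Quad (Hoxa7 and Hoxc4), 0 of 834 in EDL and 0 of 2145 in Dia. The Sol site at -658 bp from Hoxa9 is shown as the closest to a posterior start site among factor sites named after a member. It is given at 211 bases on the minus strand, with its 5 CG dinucleotides in capitals.
MED1 site of Sol (chr6:52227923-52228133, mm10, minus strand): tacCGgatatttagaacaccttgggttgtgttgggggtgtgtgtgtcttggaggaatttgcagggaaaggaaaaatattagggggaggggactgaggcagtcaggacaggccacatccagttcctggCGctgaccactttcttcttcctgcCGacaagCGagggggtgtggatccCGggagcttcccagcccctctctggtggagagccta

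The Sol NFAT list, with 39661 sites, named members 10 times (Hoxb1, Hoxc13, Hoxd1 and Hoxd4 each 2 times, Hoxc10 and Hoxa7), and the Quad list of 485 sites named none. In Sol, H3K27ac member regions overlapped MED1 in 2 of 30 cases (6.67%, all regions 5.34%) and NFAT in 1 of 30 (3.33%, all regions 3.02%), which are shares close to those of all regions. The MED1 site near Hoxa9 is not among the 2, because the Sol H3K27ac region around it was named after Mir196b.

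Genes that act with or around the Hox genes were counted from fixed lists. Of the 8 limb position genes 6 were named in Dia and 3 to 7 in hindlimb lists. Pitx1, the factor that gives the hindlimb its identity, was named by H3K27ac in 6 of 7 hindlimb lists and not in Dia, and by H3K4me2 in all 8. Being named by H3K27ac in at least 5 hindlimb lists and not in Dia held for 5.92% of all genes. The other limb position genes did not divide this way by H3K27ac. Tbx4, Tbx5, Pax3 and Shox2 were named in 5 hindlimb lists each and in Dia, Lbx1 and Meox2 in all 8 lists, and Hand2 in none. Lists of Cdx and retinoic acid regulators (6 of 11 in Dia, 5 to 7 in hindlimb), of Polycomb and Trithorax genes (17 of 17, and 15 to 17) and of genes flanking the clusters (14 of 20, and 13 to 15) did not separate Dia from the hindlimb lists.

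Other cells of the tissue were checked by their markers. Mesothelium covers the diaphragm, and its markers (Wt1, Msln, Upk3b, Upk1b and Lrrn4) were named by H3K27ac 5 of 5 times in Dia and 1 to 2 times in hindlimb lists, with summed log2 levels of 10.92 against 5.03 to 8.41. By H3K4me2 they were named 3 times in Dia and 2 to 3 times in hindlimb lists, with 8.79 against 5.39 to 7.69. These values move with the diaphragm results, and their part in them was not tested. Markers of fibroblasts were named 8 of 8 times in Dia and 7 to 8 times in hindlimb lists, with summed levels of 13.46 and 11.82 to 13.70, and those of endothelium 8 of 8 and 7 to 8 times. Satellite cell markers numbered 4 of 5 in Dia and 2 to 4 in hindlimb lists, with summed levels of 11.52 against 9.98 to 11.08. Macrophage (4 of 7, and 3 to 5), Schwann cell (3 of 6, and 2 to 4) and fat cell markers (3 of 5, and 2 to 4) gave Dia counts within the hindlimb range.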

How the data were processed

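ChIP-seq reads were aligned by the authors with Bowtie (1.2 per the labels) to mm10, and HOMER tag directories kept 1 tag per position. The authors called regions over both replicates against input with HOMER and DESeq2, at 2-fold over input and an FDR of 0.05, and annotated each to the nearest start site. The levels deposited by the authors are log2 values, read here as the regularized logarithm of DESeq2, which the authors applied within each list. The deposited p-values are adjusted ones of that call and were used only as a stricter filter (under 0.001). The deposited ATAC signal is tags per 10 M, and the deposited MED1 and NFAT peak scores served for ranking. The differential lists and a set of intervals on mm9 entered no level comparison, and columns of the authors' own comparisons were not used. No sample column was left unused (0).

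Levels were expressed per kb of region width as level minus log2 of width. The members and gene lists were chosen with earlier results of these data known. Members were named in full where hindlimb and diaphragm lists divided, where they had the highest percentile of a cluster, where a matched region was called, or where no list named them. The region between the Hoxc8 and Hoxc6 start sites and the genes Hoxa5, Hoxa6, Hoxa11, Hoxa13 and Hoxc5 to Hoxc9 were added after their values were seen. Start sites were curated RefSeq ones on GRCm38. Shares carry Wilson 95% intervals. One cofactor list is not reported here. Scripts were tested on simulated data. Alternatives were a stricter filter, whole clusters, the level of whole regions, another overlap or centring and leaving out replicates. Replicates are separate animals or pools of animals per the study's methods. Python 3.11.15, numpy 2.4.6, pandas 2.3.3, scipy 1.17.1, pysam 0.24.0 and matplotlib 3.10.9 were used.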

Additional observations from a re-analysis of the deposited data

How the results depend on the processing

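Of the values that answer a comparison, 150 were labelled the same under the alternatives, 39 moved and 1 reversed. For single genes 38 were labelled the same, 39 moved and none reversed. The label of same was wide. It let counts shift within a set factor. It let differences between hindlimb and Dia member counts change in any way short of a change of sign. The hindlimb mean of posterior members named by H3K27ac exceeded Dia by 5.29, by 4.57 to 6.43 under the alternatives, and by 5.20 without the treated lists Ex and mTg, which was chosen after seeing the data. The excess over all members, 5.43, fell to 0.14 at an adjusted p-value under 0.001, which was still labelled the same. There, members named by H3K27ac numbered 13 in Sol, 9 in Wt and 11 in mTg. Counting start sites in place of names gave 11 in mTg. Measured over the whole cluster in place of named regions, the hindlimb mean minus Dia was -0.56 kb in Hoxa by H3K27ac, a reversal, 26.32 kb in Hoxc by H3K27ac and -16.88 kb in Hoxb by H3K4me2. The cause was not tested. Median percentiles from the level of the whole region were 51.1 (EDL), 55.5 (Quad) and 56.3 (Dia) by H3K27ac, and 62.3 (EDL), 66.7 (Quad), 56.8 (Sol) and 62.1 (Dia) by H3K4me2. Without either replicate they ran from 46.1 to 49.8 (EDL), 46.7 to 50.8 (Sol) and 48.5 to 50.5 (Dia) by H3K27ac, and from 51.5 to 51.9 (Sol) by H3K4me2. Called member regions between Dia and limb muscles, among limb muscles and among quadriceps groups numbered 8, 7 and 6 by H3K27ac and 14, 11 and 9 by H3K4me2 with the level of the whole region. At a reciprocal overlap of 80% they numbered 0 and 0 in the first pair by H3K27ac, and 3, 0 and 1 by H3K4me2. Centred on the whole list, the quadriceps groups gave 1 and 19. Without a replicate they gave 1 to 4 by H3K27ac and 2 to 7 by H3K4me2, and the limb muscles 2 to 4 by H3K4me2. H3K4me2 members with H3K27ac over at least 50% of the region made up 34.0% in Wt and 33.3% in mTg. With the 834 highest MED1 sites of each list, overlaps in Sol were 0 and 0. No paired analysis was possible because no result between lists comes from a test, as the lists were normalized separately, and no member is in a differential list, so limma and the replicate block were not run. Whether the lower depth of mTg bears on its counts was not tested.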
